A study of Homo sapiens with 12 samples.

Results

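The 10 genes described here belong to the last steps of epidermal differentiation: the transglutaminases TGM1, TGM3 and TGM5, the protease CASP14, and 6 genes for structural or adhesive proteins of the outer epidermis, namely SBSN, KRTDAP, CDSN, CNFN, FLG and LOR. They were chosen by name, and each symbol was matched to 1 Ensembl gene, so that they are 10 of the 57370 genes in the table. LOR is listed under its newer symbol LORICRIN. All 10 had at least 1 read in some library, but only 6 reached 1 CPM, a read count scaled to library size, in at least 6 of the 12 libraries, as did 13296 genes of the whole table.

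The libraries come from HaCaT, an immortalized human keratinocyte line. HaCaT_sh cells carried, from a lentivirus, a hairpin RNA directed at IQGAP3, a scaffold protein, and switched on by doxycycline, and HaCaT_ctrl cells carried a scrambled hairpin in the same vector. Both were puromycin-selected stable clones of 1 parental line, so that a difference between them may also be one between clones. The groups are HaCaT_sh+cyto, HaCaT_ctrl+cyto, HaCaT_sh and HaCaT_ctrl, with 3 libraries each. The 2 stimulated groups received IL17 at 100 ng/mL, TNFa at 25 ng/mL and IFNg at 20 ng/mL, with doxycycline in the medium. The methods describe doxycycline before stimulation for both lines and do not separately describe the unstimulated cultures. The libraries are labelled as biological replicates, and what separated the cultures is not stated.

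As keratinocytes move outward they stop dividing and build a cornified envelope, a sheath of cross-linked protein under the plasma membrane. Transglutaminases make the cross-links, with TGM1 bound to the membrane and TGM3 and TGM5 mostly in the cytoplasm. LOR and other small proteins are the substrates, FLG bundles keratin filaments and is later broken down to moisturizing compounds, CASP14 takes part in that breakdown, and CDSN holds the flattened cells together.

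Sequences just upstream of the start sites are shown for the 4 genes with the clearest changes, so that the letters can be read beside their levels. The sequences are from RefSeq (table build GRCh38.p14), and each matched GRCh37 at 1 place. They run 5′ to 3′ on the gene's strand and stop before the first base of the Gencode gene. SBSN is at chr19:36019254-36019463, minus strand. CDSN is at chr6:31088224-31088473, minus strand. TGM5 is at chr15:43559127-43559376, minus strand. CASP14 is at chr19:15160041-15160290, plus strand. Capitals mark matches, on either strand, to the AP-1 letters TGANTCA, the GRHL letters AACNGGTT, the NF-kB letters (GGG and CC, 5 bases apart) or the KLF letters GGGNGTG.
SBSN: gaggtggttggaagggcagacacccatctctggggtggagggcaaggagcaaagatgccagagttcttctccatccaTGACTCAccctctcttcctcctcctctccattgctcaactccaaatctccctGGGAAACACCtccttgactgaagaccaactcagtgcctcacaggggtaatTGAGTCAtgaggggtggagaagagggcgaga
CDSN: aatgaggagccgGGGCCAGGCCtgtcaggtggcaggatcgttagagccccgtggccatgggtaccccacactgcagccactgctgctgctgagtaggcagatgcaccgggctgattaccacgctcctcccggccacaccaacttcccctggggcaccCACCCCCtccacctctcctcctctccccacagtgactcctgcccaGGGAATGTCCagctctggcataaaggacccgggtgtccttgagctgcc
TGM5: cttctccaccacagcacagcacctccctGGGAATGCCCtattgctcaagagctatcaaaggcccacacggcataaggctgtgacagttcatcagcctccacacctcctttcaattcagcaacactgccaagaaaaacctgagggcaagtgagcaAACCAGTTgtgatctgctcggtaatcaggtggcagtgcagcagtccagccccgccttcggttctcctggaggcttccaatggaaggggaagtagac
CASP14: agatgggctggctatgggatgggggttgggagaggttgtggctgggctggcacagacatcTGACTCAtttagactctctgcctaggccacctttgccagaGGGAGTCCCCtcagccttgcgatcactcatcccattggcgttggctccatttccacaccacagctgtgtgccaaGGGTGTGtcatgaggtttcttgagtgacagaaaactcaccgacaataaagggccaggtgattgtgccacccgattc

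RefSeq promoter windows of 300 bases, from 250 before to 50 after the start, were found for 9 of the 10 genes, all but TGM1. The AP-1 letters occurred in 5 of these 9 windows (CASP14, SBSN, KRTDAP, FLG and LOR), against 7.76% of 27305 windows in the table. SBSN held 2 of them, at -173 and -71 from its RefSeq start, and CASP14 held 1 at -190. The NF-kB letters occurred in 7 of the 9 windows, but also in 58.0% of all windows. The KLF letters were found in 5 windows and in 29.2% of all windows, the GRHL letters in TGM5 alone (at -96) and in 1.73% of all, and the TATA box letters TATAAA in TGM3, KRTDAP and FLG and in 12% of all. Neither the GAS letters TTCNNNGAA nor the ISRE letters (TTTC and TTTC, 2 bases apart) occurred in any of the 9, against 7.88% and 3.65% of all windows. Matches overlapped between motifs in KRTDAP (AP-1 at -82 and KLF at -87), within the NF-kB letters in FLG (at -58 and -54) and within the TATA box letters in TGM3 (at -230 and -228). These are matches of letters and were not set against any binding data.

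Total counts per library were between 13079055 and 17308021, and replicates correlated at r = 0.990 to 0.998 on log2 CPM. IQGAP3, the targeted gene, had 115, 101 and 98.0 CPM in the libraries labelled HaCaT_sh, against 74.8, 70.2 and 77.1 CPM in HaCaT_ctrl, which goes against the label. With cytokines it had 1.15, 1.64 and 0.911 CPM in the libraries labelled HaCaT_sh+cyto, against 1.89, 3.96 and 4.06 CPM in HaCaT_ctrl+cyto. Every comparison of the lines below is therefore one between libraries labelled HaCaT_sh and HaCaT_ctrl. All 8 keratinocyte markers were detected in each group, with a summed level of 10423 to 11201 CPM in HaCaT_sh+cyto, 7688 to 8921 in HaCaT_ctrl+cyto, 9166 to 9731 in HaCaT_sh and 8832 to 9149 in HaCaT_ctrl. By 2-fold or more with adjusted p under 0.01 (edgeR), 4 of the 8 rose and 2 fell with cytokines in HaCaT_sh. In HaCaT_ctrl 2 rose and 2 fell. Of all genes tested, 14.9% rose and 21% fell in HaCaT_sh, and 14.7% and 21.1% in HaCaT_ctrl. The basal keratin KRT5 had 151 CPM in HaCaT_sh+cyto and 72.8 in HaCaT_ctrl+cyto, against 4439 in HaCaT_sh and 3696 in HaCaT_ctrl. LAMB3 rose, with 5827 CPM in HaCaT_sh+cyto and 4363 in HaCaT_ctrl+cyto, against 1139 in HaCaT_sh and 1055 in HaCaT_ctrl. The 8 fibroblast markers summed to 7.34 to 9.32, 2.12 to 3.72, 38.7 to 56.9 and 200 to 244 CPM in the same 4 groups. Most of the last came from DCN (197 CPM in HaCaT_ctrl), while COL1A2 was at 0 in HaCaT_sh and HaCaT_ctrl. Markers of endothelium (3 of the 4 listed were in the table) summed to at most 30.6 CPM, of melanocytes to at most 5.49 and of leukocytes to at most 0.985. The part of these shifts in the results below was not tested.

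Among the 3 transglutaminases, TGM1 was by far the most abundant per transcript length. It had 48.8 ± 11.3 CPM per kb in HaCaT_sh+cyto, 24.8 ± 6.44 in HaCaT_ctrl+cyto, 65.1 ± 2.84 in HaCaT_sh and 46.6 ± 2.07 in HaCaT_ctrl (SD, n = 3 each). TGM5 stood at 2.82 ± 0.759 CPM per kb in HaCaT_sh and 0.703 ± 0.150 in HaCaT_ctrl. With cytokines TGM5 was at 0.0596 ± 0.0381 CPM per kb in HaCaT_sh+cyto and had no count in HaCaT_ctrl+cyto. TGM3 had 2 counts in all 12 libraries together, 1 each in HaCaT_ctrl replicates 1 and 3. With 0 counts in a group of 3 libraries, the floor of 3 counts lies at 0.0586 to 0.0712 CPM, depending on the group, for counting error only.

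**Figure D1:**
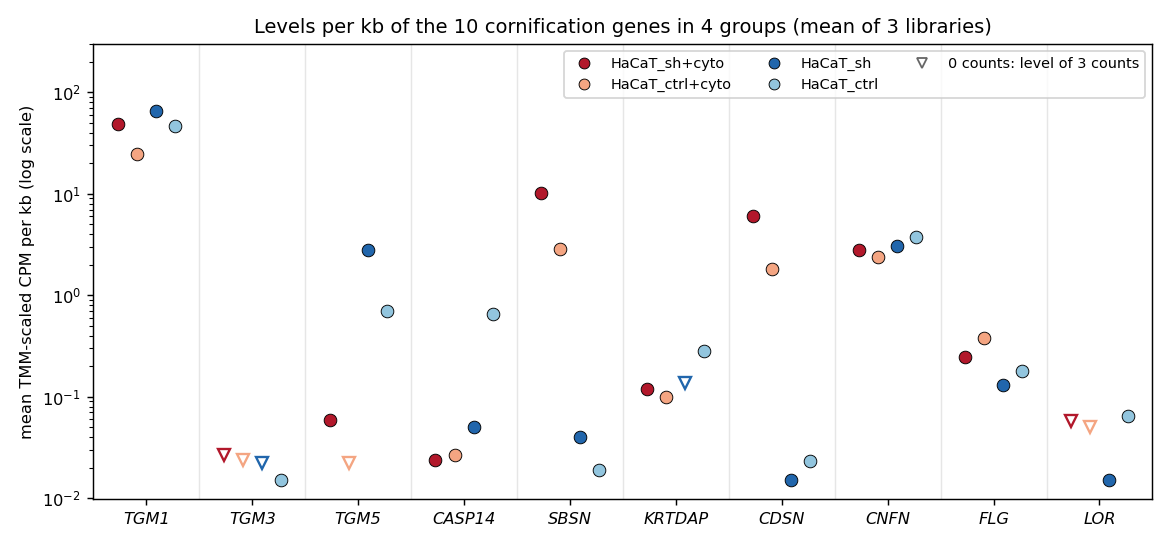
Mean level of each gene in CPM per kb of its canonical transcript (vertical log axis) in 4 groups of 3 libraries; filled points are means and open triangles stand at the level of 3 counts where a group had 0. TGM1 lies between 24.8 and 65.1 CPM per kb in all groups, while TGM3, KRTDAP and LOR are at most at 0.281.

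Without cytokines, 5 of the 10 genes passed the filter of at least 1 CPM in 3 of the 6 libraries, TGM5 rose in HaCaT_sh and CASP14 fell. Calls required a change of 2-fold or more with adjusted p under 0.01, and 8.87% of the 13719 genes tested were called (3.8% higher, 5.07% lower). CASP14 passed the filter only through HaCaT_ctrl, and genes low in both groups were not tested. As in every count here, less RNA per cell and fewer cells that express a gene cannot be told apart. TGM5 (ENSG00000104055, chr15:43524788-43559126, minus strand, 13 exons) is a transglutaminase whose loss causes a peeling skin disorder. It had 103, 136 and 170 counts in HaCaT_sh, against 34, 39 and 28 counts in HaCaT_ctrl. The HaCaT_sh counts were all above those of HaCaT_ctrl, and varied more among themselves. The log2 fold change was 2.01 (SE 0.22, adjusted p = 1.43e-06), a ratio of 4.04.

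CASP14 (ENSG00000105141, chr19:15160291-15169104, plus strand, 7 exons) encodes a caspase found mainly in cornifying epithelium, where it takes part in filaggrin breakdown. It had 2, 5 and 1 counts in HaCaT_sh, against 30, 40 and 34 counts in HaCaT_ctrl, with no overlap. Its log2 fold change was -3.64 (SE 0.38, adjusted p = 9.87e-07). The summed counts of 8 against 104 give a level 13-fold lower in HaCaT_sh, with a 95% interval of 6.38 to 31.0 that covers counting error only. TGM5 and CASP14 thus moved in opposite directions in the same libraries.

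TGM1 (ENSG00000092295, chr14:24718320-24733638, minus strand, 15 exons) had 174, 188 and 174 CPM in HaCaT_sh, against 130, 132 and 121 CPM in HaCaT_ctrl. The groups did not overlap and the replicates lay close together. Its log2 fold change of 0.49 (SE 0.05, adjusted p = 6.86e-07) passed the p threshold but was under 2-fold, so it was not called. FLG (ENSG00000143631, chr1:152274641-152297715, minus strand, 3 exons) had 25, 35 and 26 counts in HaCaT_sh, against 32, 39 and 48 counts in HaCaT_ctrl. Its groups overlapped, and its log2 fold change of -0.46 (SE 0.21, adjusted p = 0.0695) was not called. CNFN, a cornified envelope component, had 28, 19 and 37 counts in HaCaT_sh, against 26, 49 and 28 counts in HaCaT_ctrl (log2 fold change -0.29, SE 0.28, adjusted p = 0.373). That sign rests on HaCaT_ctrl replicate 2, without which the value was 0.04. SBSN, with 2, 1 and 1 counts in HaCaT_sh against 0, 1 and 1 in HaCaT_ctrl, and CDSN, with 1, 0 and 1 counts in HaCaT_sh against 1, 1 and 1 in HaCaT_ctrl, were too low to test.

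**Figure D2:**
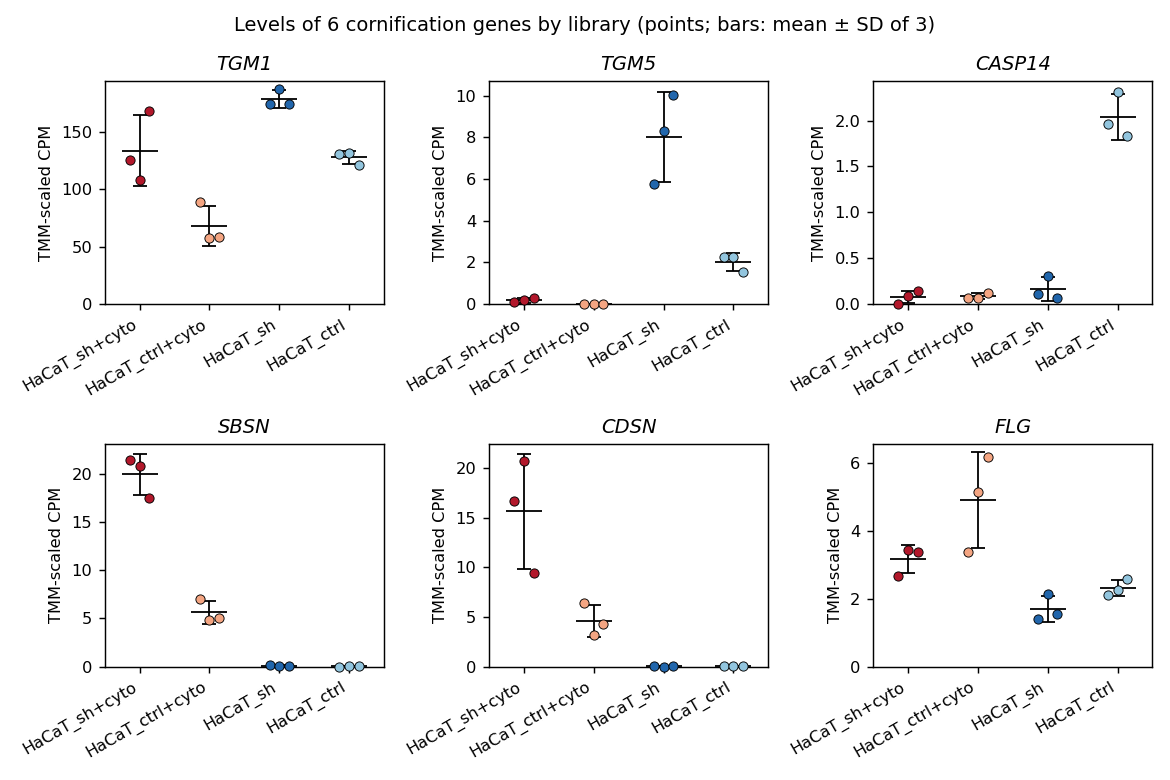
TMM-scaled CPM (vertical axes, from 0, each with its own range) of 6 genes in each library; points are libraries and bars the mean ± SD of 3. SBSN and CDSN are near 0 in both unstimulated groups and highest in HaCaT_sh+cyto, TGM5 is highest in HaCaT_sh, and CASP14 averages 2.04 CPM in HaCaT_ctrl and at most 0.158 CPM elsewhere.

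In the control line, cytokines were followed by higher SBSN, CDSN and FLG and by lower TGM5 and CASP14. These are 3 higher and 2 lower of the 7 genes tested, where 35.9% of the 13687 genes tested were called (14.7% higher, 21.1% lower). SBSN and CDSN passed the filter only through HaCaT_ctrl+cyto, and TGM5 and CASP14 only through HaCaT_ctrl. For these genes a call was nearly fixed by their entry into the test. SBSN (ENSG00000189001, chr19:36014269-36019253, minus strand, 4 exons), whose product suprabasin is secreted by suprabasal keratinocytes, had 107, 77 and 83 counts in HaCaT_ctrl+cyto, against 0, 1 and 1 counts in HaCaT_ctrl. It was close to absent without cytokines and present in each stimulated library. The fitted log2 change was 6.94 (SE 0.43, adjusted p = 1.90e-07), but with 2 counts in HaCaT_ctrl the ratio of 143 has a counting interval of 39.1 to 1185.

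CDSN (ENSG00000204539, chr6:31082864-31088223, minus strand, 2 exons), corneodesmosin, is an adhesion protein of the corneodesmosomes. It had 98, 51 and 70 counts in HaCaT_ctrl+cyto, against 1, 1 and 1 counts in HaCaT_ctrl. The log2 fold change was 6.15 (SE 0.49, adjusted p = 1.30e-06), and the ratio of 78.1 has a counting interval of 26.4 to 381. CDSN shares its locus with PSORS1C1 on the opposite strand, and the strand setting of the counting is not given. PSORS1C1 had 7.45 ± 0.477 CPM in HaCaT_ctrl+cyto and 1.70 ± 0.131 CPM in HaCaT_ctrl (SD, n = 3 each). It was also called higher with cytokines (log2 fold change 2.15, adjusted p = 5.77e-07 by edgeR). Whether reads of PSORS1C1 were counted for CDSN was not tested.

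FLG had 52, 82 and 102 counts in HaCaT_ctrl+cyto, against 32, 39 and 48 counts in HaCaT_ctrl. The groups were apart, although the lowest stimulated library lay close to the highest unstimulated one. Its log2 fold change of 1.11 (SE 0.23, adjusted p = 0.00133) was just past 2-fold, and dropped to 0.91 without HaCaT_ctrl+cyto replicate 3 and to 0.90 with library size alone as the scaling, which ended the call. FLG-AS1, which overlaps FLG on the opposite strand, went the other way, with 1.71 ± 0.436 CPM in HaCaT_ctrl+cyto and 13.5 ± 0.633 CPM in HaCaT_ctrl (SD, n = 3 each).

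TGM5 had 0, 0 and 0 counts in HaCaT_ctrl+cyto, against 34, 39 and 28 counts in HaCaT_ctrl. Set against a floor of 3 counts over the group, the level was 31.5-fold lower (adjusted p = 1.52e-05 by edgeR). The 95% counting interval starts at 25.1-fold lower. CASP14 had 1, 1 and 2 counts in HaCaT_ctrl+cyto, against 30, 40 and 34 counts in HaCaT_ctrl. On the log2 scale the change was -4.46 (SE 0.37, adjusted p = 1.68e-06), with a level 24.3-fold lower and a counting interval of 9.22 to 90.9.

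TGM1 had 88.5, 57.5 and 58.3 CPM in HaCaT_ctrl+cyto, against 130, 132 and 121 CPM in HaCaT_ctrl. All 3 stimulated libraries were lower, replicate 1 less so than the others. The log2 fold change of -0.88 (SE 0.15, adjusted p = 0.000274) was under 2-fold. It was -1.11 without HaCaT_ctrl+cyto replicate 1 and -1.10 with library size alone, both past the threshold. CNFN had 27, 14 and 20 counts in HaCaT_ctrl+cyto, against 26, 49 and 28 counts in HaCaT_ctrl, and its groups overlapped (log2 fold change -0.62, SE 0.33, adjusted p = 0.101).

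In the libraries labelled HaCaT_sh, cytokines were followed by higher SBSN and CDSN and lower TGM5, that is 2 higher and 1 lower of 6 genes tested, beside 35.9% of the 13480 genes tested (14.9% higher, 21% lower). All 3 passed the filter through 1 group only, SBSN and CDSN through HaCaT_sh+cyto and TGM5 through HaCaT_sh. SBSN had 335, 254 and 250 counts in HaCaT_sh+cyto, against 2, 1 and 1 counts in HaCaT_sh. Its log2 fold change was 7.86 (SE 0.25, adjusted p = 1.11e-09), and the ratio of 255 has a counting interval of 99.2 to 938. CDSN had 262, 253 and 134 counts in HaCaT_sh+cyto, against 1, 0 and 1 counts in HaCaT_sh. The fitted log2 change was 8.38 (SE 0.57, adjusted p = 2.16e-07), with a ratio of 394 and a counting interval of 109 to 3264. Both genes were therefore near 0 in both lines before stimulation, and the size of the ratio is set by a few reads. PSORS1C1, which overlaps CDSN, averaged 5.58 CPM in HaCaT_sh+cyto and 0.749 CPM in HaCaT_sh. It was called higher as well (log2 fold change 2.91, adjusted p = 1.30e-06 by edgeR), and its part in the CDSN counts was not tested.

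TGM5 had 1, 2 and 4 counts in HaCaT_sh+cyto, against 103, 136 and 170 counts in HaCaT_sh. The log2 fold change was -5.51 (SE 0.41, adjusted p = 3.90e-07), a level 48.1-fold lower with a counting interval of 23.1 to 120. CASP14 was not tested here, with 0, 1 and 2 counts in HaCaT_sh+cyto against 2, 5 and 1 counts in HaCaT_sh, levels that overlap and lie near the limit of detection in both groups. FLG had 42, 42 and 48 counts in HaCaT_sh+cyto, against 25, 35 and 26 counts in HaCaT_sh. Its log2 fold change of 0.91 (SE 0.22, adjusted p = 0.00311) was under 2-fold, and passed it at 1.02 without HaCaT_sh+cyto replicate 1 and at 1.11 without HaCaT_sh replicate 2.

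TGM1 had 125, 108 and 168 CPM in HaCaT_sh+cyto, against 174, 188 and 174 CPM in HaCaT_sh. The highest stimulated library nearly reached the lowest unstimulated one, and the log2 fold change of -0.41 (SE 0.13, adjusted p = 0.0132) was not called. CNFN had 32, 11 and 22 counts in HaCaT_sh+cyto, against 28, 19 and 37 counts in HaCaT_sh. The fitted value was -0.09 (SE 0.32, adjusted p = 0.810), and its sign turned to 0.14 without HaCaT_sh+cyto replicate 2 and to 0.17 without HaCaT_sh replicate 3.

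**Figure D3:**
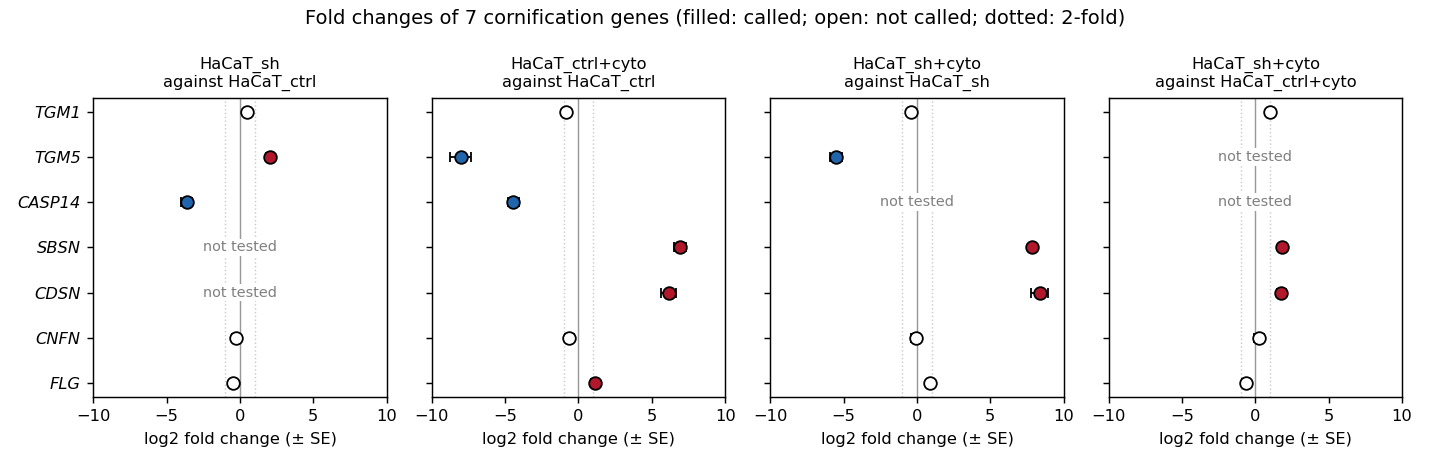
Log2 fold changes with their standard errors (horizontal axis) of the 7 genes that passed the filter in at least 1 of 4 comparisons; filled points were called, open points were not, and dotted lines mark 2-fold. The value of TGM5 in HaCaT_ctrl+cyto against HaCaT_ctrl, -8.02, is set against 0 counts and is no bound; SBSN and CDSN exceed 6 on this scale after cytokines in both lines.

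Between the stimulated groups, SBSN and CDSN were higher in HaCaT_sh+cyto, which makes 2 higher and 0 lower of 5 genes tested, beside 4.13% of the 12693 genes tested (2.5% higher, 1.63% lower). On the lower side, 1 gene (FLG) had an unadjusted p under 0.05 by edgeR, and DESeq2 called 0. SBSN averaged 19.9 ± 2.09 CPM in HaCaT_sh+cyto and 5.61 ± 1.18 CPM in HaCaT_ctrl+cyto (SD, n = 3 each). Each HaCaT_sh+cyto library (21.4, 20.8 and 17.5 CPM) exceeded each HaCaT_ctrl+cyto library (6.97, 4.84 and 5.03 CPM) by a wide margin. The log2 fold change was 1.83 (SE 0.17, adjusted p = 0.000136), a ratio of 3.56 with a counting interval of 3.10 to 4.10.

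CDSN had 16.7, 20.7 and 9.39 CPM in HaCaT_sh+cyto, against 6.39, 3.20 and 4.24 CPM in HaCaT_ctrl+cyto. The groups were apart, but replicate 3 of HaCaT_sh+cyto lay closer to the control line than the other two did. On the log2 scale the change was 1.76 (SE 0.31, adjusted p = 0.00400). The call was lost without HaCaT_sh+cyto replicate 1 (1.71, adjusted p = 0.0151) or 2 (1.51, adjusted p = 0.0104) and without HaCaT_ctrl+cyto replicate 2 (1.56, adjusted p = 0.0234) or 3 (1.70, adjusted p = 0.0182). The overlapping PSORS1C1 ran the other way, with 5.58 ± 0.647 CPM in HaCaT_sh+cyto and 7.45 ± 0.477 CPM in HaCaT_ctrl+cyto (SD, n = 3 each).

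TGM1 averaged 134 ± 31.0 CPM in HaCaT_sh+cyto and 68.1 ± 17.7 CPM in HaCaT_ctrl+cyto (SD, n = 3 each). The 3 libraries of each group did not overlap. Its log2 fold change of 0.98 (SE 0.20, adjusted p = 0.00663) was just short of 2-fold, and reached 1.11 without HaCaT_sh+cyto replicate 2 and 1.21 without HaCaT_ctrl+cyto replicate 1. FLG averaged 3.16 ± 0.419 CPM in HaCaT_sh+cyto and 4.91 ± 1.41 CPM in HaCaT_ctrl+cyto, with overlapping groups (log2 fold change -0.64, SE 0.25, adjusted p = 0.0793). CNFN had 32, 11 and 22 counts in HaCaT_sh+cyto, against 27, 14 and 20 counts in HaCaT_ctrl+cyto (log2 fold change 0.25, SE 0.36, adjusted p = 0.630). TGM5, not tested, had 1, 2 and 4 counts in HaCaT_sh+cyto, against 0, 0 and 0 counts in HaCaT_ctrl+cyto. That is 2.64-fold higher against the floor of 3 counts, with a counting interval that starts at 1.63. CASP14, also untested, had 0, 1 and 2 counts in HaCaT_sh+cyto, against 1, 1 and 2 in HaCaT_ctrl+cyto.

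An interaction term in a fit of all 12 libraries asked whether the lines differed in their cytokine response, and 2.62% of 13296 genes were called (1.4% higher, 1.23% lower). None of the 6 genes tested was called by edgeR, with or without the filter on low counts, or by DESeq2, and 1 (TGM1) had an unadjusted p under 0.05. The response of TGM1 was 0.49 less negative in HaCaT_sh (SE 0.22, adjusted p = 0.132). Without the filter this difference was 0.46 (adjusted p = 0.00172 by edgeR), which passed the p threshold but was under 2-fold. SBSN and CDSN, with 1 or no count in most unstimulated libraries, gave differences of 0.96 (SE 1.41, adjusted p = 0.694) and 2.26 (SE 1.95, adjusted p = 0.459). The difference was 2.47 for TGM5 (SE 1.57, adjusted p = 0.306), 0.56 for CNFN (SE 0.49, adjusted p = 0.472) and -0.18 for FLG (SE 0.34, adjusted p = 0.758), and the sign of FLG turned without HaCaT_sh replicate 2 or HaCaT_ctrl+cyto replicate 3 (0.02 each). The errors for SBSN, CDSN and TGM5 exceed 1 on the log2 scale, so a 2-fold difference between the responses of these genes was not detectable at this depth.

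KRTDAP and LOR stayed at the limit of detection. KRTDAP (chr19:35978226-35986460, minus strand, 6 exons), a secreted keratinocyte peptide, had 0, 1 and 1 counts in HaCaT_sh+cyto, 1, 1 and 0 in HaCaT_ctrl+cyto, 0, 0 and 0 in HaCaT_sh and 2, 3 and 1 in HaCaT_ctrl. LOR (chr1:153232163-153234600, plus strand, 2 exons), a main protein of the mature envelope, had no count in any stimulated library, 1, 0 and 0 counts in HaCaT_sh and 2, 1 and 1 in HaCaT_ctrl. CNFN (chr19:42891171-42894449, minus strand, 4 exons) and TGM3 (chr20:2276647-2321725, plus strand, 13 exons) complete the set. Against the floor of 3 counts over the group, KRTDAP was 2.01-fold lower in HaCaT_sh than in HaCaT_ctrl, with a counting interval that starts at 1.18. LOR was 1.25-fold lower in HaCaT_ctrl+cyto than in HaCaT_ctrl, but its counting interval starts at 0.617 and so includes no change. These are differences of a few reads that were not tested.

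The order of the 4 groups therefore differed from gene to gene. For SBSN and CDSN it was HaCaT_sh+cyto, then HaCaT_ctrl+cyto, then both unstimulated groups together near 0. For TGM5 it was HaCaT_sh, then HaCaT_ctrl, then the stimulated groups, and for TGM1 HaCaT_sh, then HaCaT_sh+cyto and HaCaT_ctrl, which overlapped, then HaCaT_ctrl+cyto. CASP14 was high in HaCaT_ctrl and at 8 counts or fewer per group elsewhere. FLG ran from HaCaT_ctrl+cyto through HaCaT_sh+cyto and HaCaT_ctrl to HaCaT_sh, with the neighbours in this order overlapping except HaCaT_sh+cyto and HaCaT_ctrl. The 4 groups of CNFN all overlapped.

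Over the 12 libraries, the genes most alike in pattern among 13296 were, by Pearson r of log2 CPM, KRT19 and MYH14 for TGM1 (0.991 each), TENT5B and GMDS for TGM5 (0.996 each), MYBBP1A and AHSA1 for SBSN (0.996 each) and IL6ST and UIMC1 for CDSN (0.995 each). FLG was most like ZNF92 and NPIPB3 (0.95 each), and CNFN like DNAJC27 (0.79) and ENSG00000261884 (0.77). SBSN and CDSN correlated at 0.993. With cytokines, 35.9% of all genes tested were called in each line. The correlations describe these 12 libraries, stimulated and unstimulated together, and carry no test.

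The other genes of cornification, from lists written with earlier results of these data known, gave the surroundings of the 10. Genes under 1 CPM in 1 group of a comparison passed the filter only through the other group, where they were higher. The counts of called genes in these lists share that limit. TGM2, the widely expressed transglutaminase, was the only one of 6 other family genes that passed the filter. It averaged 58.5 ± 5.26 CPM in HaCaT_sh+cyto, 11.8 ± 0.467 in HaCaT_ctrl+cyto, 9.95 ± 2.75 in HaCaT_sh and 1.41 ± 0.262 in HaCaT_ctrl (SD, n = 3 each). It was called higher in all 4 pairwise comparisons, with log2 fold changes between 2.31 and 3.07.

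Of 39 other envelope precursors, the substrates of the transglutaminases, 18 were tested in the control line with cytokines, and 9 rose and 4 fell (median log2 fold change 1.27, against -0.03 for all genes). In HaCaT_sh, 11 rose and 1 fell of 18 (median 2.09, against -0.02 for all genes). Of all genes tested, 14.7% were called higher and 21.1% lower in HaCaT_ctrl, and 14.9% higher and 21% lower in HaCaT_sh. Several of those that rose, such as SPRR2D and SPRR2E, were under 1 CPM without cytokines in both lines. They passed the filter only through the stimulated group, so a rise was nearly fixed by their entry into these counts and medians. SPRR2E averaged 178 ± 13.4 CPM in HaCaT_sh+cyto and 0.174 ± 0.110 CPM in HaCaT_sh, and 184 ± 69.0 CPM in HaCaT_ctrl+cyto and 0.209 ± 0.101 CPM in HaCaT_ctrl. The SPRR2 genes are closely similar copies, and how reads were split between them is uncertain. IVL, involucrin, went down, to 15.4 ± 0.765 CPM in HaCaT_sh+cyto against 240 ± 23.9 CPM in HaCaT_sh, and to 4.98 ± 1.12 CPM in HaCaT_ctrl+cyto against 464 ± 37.3 CPM in HaCaT_ctrl. Its response differed between the lines by 2.58 (adjusted p = 9.12e-07), as did those of SPRR3 (4.81), LCE1E (2.41) and SPRR1A (1.45). These were 4 higher of 17 tested, beside 1.4% of all genes, and the other 13 were not called. Between the stimulated groups, SPRR1A, IVL, SPRR3 and SPRR2G were higher and PI3 lower in HaCaT_sh+cyto, of 19 tested (2.5% higher and 1.63% lower of all genes). Without cytokines 4 fell of 12 (PI3, SPRR3, LCE1E and SPRR2A), beside 5.07% of all genes, and the other 8 were not called.

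Of 8 filaggrin processing genes tested in each line, 2 rose and 4 fell with cytokines. Of all genes tested, 14.9% were called higher and 21% lower in HaCaT_sh, and 14.7% higher and 21.1% lower in HaCaT_ctrl. Those that fell included PADI2, a peptidylarginine deiminase (0.861 ± 0.110 CPM in HaCaT_sh+cyto and 15.6 ± 2.56 in HaCaT_sh, 0.886 ± 0.619 in HaCaT_ctrl+cyto and 43.7 ± 1.09 in HaCaT_ctrl). Those that rose were the proteases PRSS8 and FURIN. TCHH, the only tested gene of 6 filaggrin-like proteins, averaged 3.31 ± 1.13 CPM in HaCaT_ctrl+cyto and 12.2 ± 0.931 CPM in HaCaT_ctrl and was called lower. It averaged 3.32 ± 0.591 CPM in HaCaT_sh+cyto and 4.40 ± 0.654 CPM in HaCaT_sh, which was not called (log2 fold change -0.38, adjusted p = 0.0848 by edgeR), and its response differed between the lines by 1.48 (adjusted p = 0.00356).

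In the corneodesmosome and shedding list, which holds the partners and proteases of CDSN, 5 rose and 1 fell of 10 tested in HaCaT_sh with cytokines, and 2 rose and 2 fell of 9 in HaCaT_ctrl. The shares of all genes called higher and lower were 14.9% and 21% in HaCaT_sh and 14.7% and 21.1% in HaCaT_ctrl. KLK5, a kallikrein that cleaves CDSN, averaged 1724 ± 184 CPM in HaCaT_sh+cyto, 755 ± 64.8 in HaCaT_ctrl+cyto, 326 ± 23.9 in HaCaT_sh and 144 ± 13.5 in HaCaT_ctrl. Between the stimulated groups 4 of 9 were higher in HaCaT_sh+cyto (KLK5, KLK7, CTSV and KLK14), beside 2.5% of all genes tested, and the other 5 were not called. SPINK5, an inhibitor of these kallikreins, averaged 1.05 ± 0.575 CPM in HaCaT_ctrl+cyto and 13.1 ± 1.17 CPM in HaCaT_ctrl.

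Spinous layer genes precede the 10 in differentiation. With cytokines, 6 of 9 tested fell in HaCaT_sh and 5 of 8 in HaCaT_ctrl, beside 21% and 21.1% of all genes. The other 3 in each were not called. Of these, KRT80 and DMKN rose by under 2-fold in HaCaT_sh (log2 fold changes 0.32 and 0.54) and in HaCaT_ctrl (0.76 and 0.48). SERPINB5 changed by 0.62 in HaCaT_sh and by -0.32 in HaCaT_ctrl. All of these had adjusted p under 0.01 by edgeR. Several of the genes that fell, such as KRT77 and LY6D, were near 0 with cytokines in both lines. They passed the filter only through the unstimulated group, so a fall was nearly fixed by their entry. KRT10 averaged 52.9 ± 0.660 CPM in HaCaT_sh+cyto and 149 ± 16.7 CPM in HaCaT_sh, and 29.0 ± 3.41 CPM in HaCaT_ctrl+cyto and 139 ± 6.27 CPM in HaCaT_ctrl. Of the regulators, 7 rose and 2 fell of 15 in HaCaT_sh, where 14.9% of all genes tested were called higher and 21% lower. In HaCaT_ctrl, 4 rose and 3 fell of 14, beside 14.7% higher and 21.1% lower of all genes. Those that fell were TP63 and POU2F3 in HaCaT_sh and MAF, GATA3 and POU2F3 in HaCaT_ctrl. PRDM1, a transcriptional repressor, averaged 122 ± 17.5 CPM in HaCaT_sh+cyto and 0.925 ± 0.269 CPM in HaCaT_sh, and KLF4 averaged 113 ± 5.49 CPM in HaCaT_sh+cyto and 16.8 ± 0.860 CPM in HaCaT_sh.

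**Figure D4:**
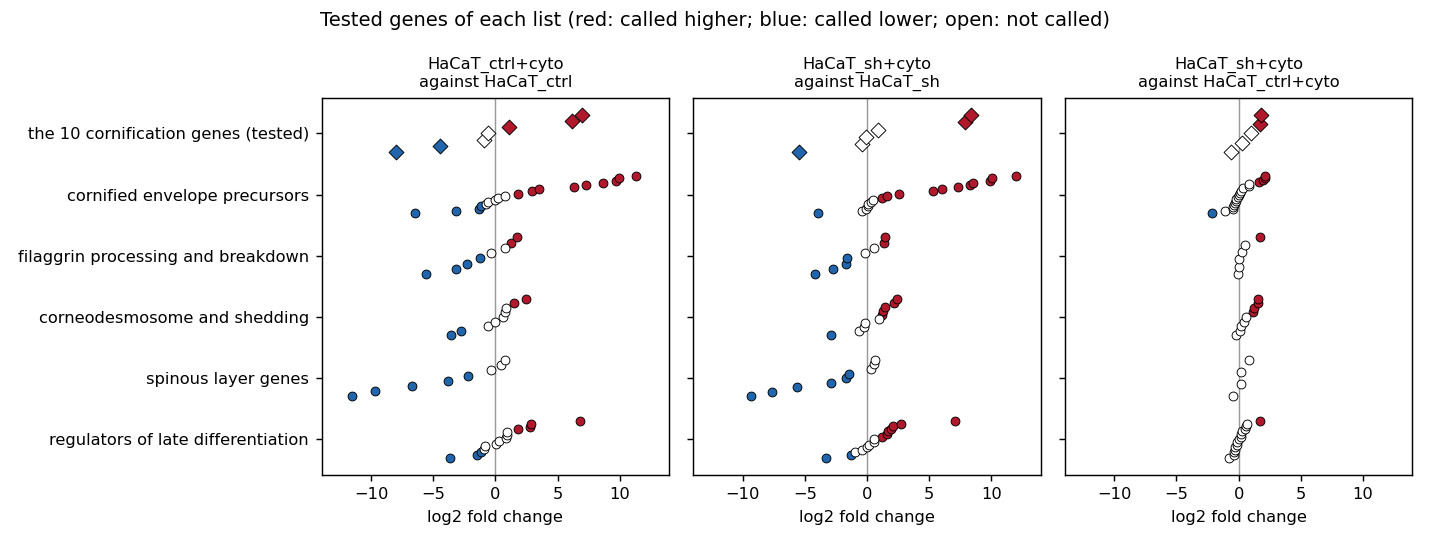
Log2 fold changes (horizontal axis) of the tested genes among the 10 (diamonds) and of the tested genes of 5 lists (circles), one panel per comparison; red was called higher, blue lower, open not called. SPRR2E lies at 9.72 in HaCaT_ctrl+cyto against HaCaT_ctrl and at 9.93 in HaCaT_sh+cyto against HaCaT_sh. Values at either end set against near-0 counts are no bounds. Spinous layer genes lie mostly below 0 in both comparisons with unstimulated cells. Between the stimulated groups fewer genes are called than with cytokines in either line, beside 4.13% of all genes tested.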

How the data were processed

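RNA was sequenced from 12 cultures of HaCaT_sh and HaCaT_ctrl cells with and without cytokines. Per the study's methods, the authors prepared directional libraries, trimmed reads with Cutadapt, mapped them with STAR to hg19 (GRCh37) with the Gencode annotation, and deposited whole-number counts per gene. How reads were counted, and with which strand setting, is not stated. A second deposited table, of CPM, was not used. Gene positions and names came from Gencode v44lift37, which named 55010 of the 57370 genes.

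Groups followed the sample labels. Each comparison used edgeR 4.0.16 in R 4.3.3 on its own 6 libraries: a filter keeping genes that reached 1 CPM in 50% of libraries or more, TMM scaling, the quasi-likelihood F test and Benjamini-Hochberg adjustment over all genes tested. Calls required adjusted p under 0.01 with a change of 2-fold or more. The SE is the log2 fold change divided by the square root of F. The interaction used all 12 libraries. Printed CPM are counts scaled by TMM over 13296 genes, and ratios with 95% exact conditional intervals cover counting error only. All 10 members are described. From each list, up to 4 called genes with the smallest p in a comparison, or every called gene of 5 or fewer, could be named. The members and lists were chosen with earlier results of these data known.

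Total counts ranged from 13079055 to 17308021 per library. The common biological coefficient of variation was 4.65% to 11.0%. On simulated data at these depths, 99% to 100% of genes changed by 1.5 on the log2 scale were recovered, with at most 1 false call. The changed genes were drawn from those above a minimum mean level, and all genes were given the same dispersion. Genes that lay lower, such as CNFN (2.02 CPM in HaCaT_ctrl), were not covered. Nor were genes that varied more, such as TGM1 (SD 25.9% of the mean in HaCaT_ctrl+cyto). Alternatives were RLE scaling, library size alone, no filter, filterByExpr, DESeq2 1.42.0, an FDR of 0.05, no fold threshold, a replicate block, 1 fit of all 12 libraries and leaving out each library.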

Additional observations from a re-analysis of the deposited data

How the results depend on the processing

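Of 465 values of the 10 genes under the alternatives, 443 kept their direction and their side of the threshold, 10 passed it newly, 6 no longer passed and 6 turned sign. With no fold threshold, 2 of the genes were called higher in HaCaT_sh against HaCaT_ctrl, TGM1 joining TGM5. Leaving out 1 library gave 1 to 3 genes called higher between the stimulated groups (3 without HaCaT_ctrl+cyto replicate 1). All sign changes came from leaving out 1 library and concern values near 0. Without 1 library, CNFN ranged from -0.55 to 0.0399 in HaCaT_sh against HaCaT_ctrl, from -0.39 to 0.17 in HaCaT_sh+cyto against HaCaT_sh and from -0.0437 to 0.54 in HaCaT_sh+cyto against HaCaT_ctrl+cyto, and FLG ranged from -0.38 to 0.0208 in the interaction. The cause was not tested.

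With library size alone, the median of all genes shifted by -0.21 in both cytokine comparisons, and 30.2% of called genes were higher in HaCaT_ctrl+cyto against HaCaT_ctrl (41.1% with TMM) and 30.6% in HaCaT_sh+cyto against HaCaT_sh (41.6% with TMM). Without the filter, 549 genes were called higher and 391 lower in HaCaT_sh+cyto against HaCaT_ctrl+cyto, against 317 and 207 with it, and 284 and 282 against 186 and 163 in the interaction. Leaving out HaCaT_sh+cyto replicate 1 gave 131 lower in HaCaT_sh+cyto against HaCaT_ctrl+cyto, and leaving out HaCaT_ctrl+cyto replicate 2 gave 196 higher and 122 lower. An FDR of 0.05 gave 283 higher and 250 lower in the interaction. With no fold threshold, calls among all genes numbered 6980, 9682, 9803, 1507 and 1091 in the 5 comparisons. Correlations of same-numbered deviations from the group means ran from -0.14 to 0.20. With 3 libraries per group, these values cannot tell whether replicate numbers pair the libraries, and no pairing was used in the main fits. Under the replicate block, HaCaT_sh+cyto against HaCaT_ctrl+cyto had 410 called genes, SBSN and CDSN were still called (1.83 and 1.73), and no call of the 10 genes changed. Depth limits KRTDAP, LOR and TGM3, and the baselines of SBSN and CDSN.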
